A study of Mus musculus with 96 samples.

Results

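The 22 libraries described here come from intestinal organoids without the clock gene Bmal1 (gene symbol Arntl), followed from 24 to 46 h after synchronization. They are all the library columns of the deposited expression table of the genotype labelled APC+/+;BMAL1-/-, out of 88 libraries in the tables of the whole series. The organoids are primary-derived epithelial cultures from C57BL/6 mice, grown in ENR medium, treated with 0.1 µM dexamethasone (a synthetic glucocorticoid, the unit written µm in the labels) for 1 h and then given fresh medium. Organoids were collected every 2 h at 12 time points, and the labels name 24 libraries, 2 per time point. The authors marked 2 of them as not used, so 36 h and 42 h have 1 library each. The control libraries used for comparison, also 22, carry the genotype APC+/+;BMAL1+/+ and had the same medium, the same treatment and the same times. Apc is wild-type in both. The labels give 2 organoid lines per genotype as biological replicates without saying which library came from which, so repeated collections of a line share a source, and p-values measure the spread between these libraries. The question set here is which transcripts still changed with time when Bmal1 was missing.

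BMAL1 pairs with CLOCK or NPAS2 and binds E-box elements to drive the Per, Cry and Nr1d genes, whose proteins then repress that same drive, and this loop makes the daily rhythm of most tissues. Mice without BMAL1 lose their daily rhythm of activity in constant darkness. Dexamethasone resets the loop through the glucocorticoid receptor. Intestinal organoids hold stem, Paneth, goblet, enteroendocrine and absorptive cells in a single epithelium.

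Expression was measured by RNA-seq of total RNA and is given as TPM, transcript abundance corrected for gene length and library total. Bmal1-null libraries had 28.8 to 42.2 M uniquely mapped reads and control libraries 29.03 to 46.2 M. Epithelial transcripts led, with Krt8 at a mean of 3866 TPM and Krt19 at 5338 TPM, while markers of other cells were near absent. Of 14 fibroblast markers 12 had a mean under 0.1 TPM, with Dcn, Lum, Thy1 and Col6a1 at 0 in every library, and of 15 immune markers 9 were under 0.1 TPM, with Cd3g, Cd4 and Cd8a at 0. The summed level of the fibroblast list was 10.1 to 14.3 TPM in the 6 libraries of 24 to 28 h and 9.60 to 13.9 TPM in the 5 libraries of 42 to 46 h. The labels number the libraries, and at each time point with both, the lower- and the higher-numbered library differed in sex-linked genes. Xist, the RNA that silences an X chromosome in female cells, was at 0 to 0.06 TPM in the 11 lower-numbered and 39.6 to 84.9 TPM in the 11 higher-numbered Bmal1-null libraries. The Y-linked gene Eif2s3y was at 39.03 to 63.6 TPM in the lower-numbered and 0 to 0.61 TPM in the higher-numbered libraries. Control libraries of both sets had Eif2s3y at 39.1 TPM or more and Xist at 0.25 TPM or less. The lower-numbered Bmal1-null libraries thus had the sex-linked pattern of control. Results within the 2 sets, and the comparison with control from the lower-numbered set alone, are given below.

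The targeted gene was measured first. Arntl was at 6.31 to 10.9 TPM in the Bmal1-null libraries, with a mean of 8.67 ± 1.14 TPM (SD, n = 22), and at 11.3 to 20.7 TPM in control, with a mean of 14.9 ± 2.74 TPM (SD, n = 22). The libraries of the 2 genotypes did not overlap, yet transcript of the gene remained in the null. Which exons the allele lacks is not given in the sources used here, and a value per gene does not show it. Nr1d1, the REV-ERBα repressor that BMAL1 activates directly, was at 1.40 to 3.25 TPM in the null against 7.65 to 28.2 TPM in control. Nr1d2, its paralogue, was at 0.85 to 2.65 TPM against 4.30 to 14.7 TPM. Neither gene overlapped between the genotypes in any library. How many of all genes were apart between the genotypes in this way was not counted.

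No clock gene was called as changing with time in the main tests of Bmal1-null organoids. Each gene was tested with limma on log2(TPM + 1) by a cosine of 24 h period, by the time point as a factor and by a straight line over the 22 h, and a call is a Benjamini-Hochberg adjusted p under 0.05 over all 12550 genes that averaged at least 1 TPM. Of the 23 genes of the core clock list 19 passed that filter, and 0 of 19 were called in any of the 3 tests in limma, with 1 (Nfil3) at an unadjusted cosine p under 0.05. The background for the cosine is 0% of all genes, for the factor 0.199% and for the straight line 6.71%. The fitted peak-to-trough swing of the 19 genes over 24 h ran from 1.02-fold to 1.28-fold, with standard errors of the log2 amplitude between 0.03 and 0.13. Their median log2 amplitude was 0.05, against 0.07 over all genes tested. On simulated data of this design, the 24 h cosine test recovered 67% of 100 genes with a 1.5-fold swing and 96% of 100 genes with a 2-fold swing, so swings as small as those fitted here were below the sizes tried. The simulation drew the noise of each gene apart and changed only genes averaging 5 TPM or more. Recovery in these libraries can therefore be lower. With the gene length slope of each library as a covariate, described below, the straight line called 3 of the 19 as rising and 1 as falling. In that fit 1938 of all 12550 genes rose and 1969 fell. With that covariate the 24 h cosine called 1 of the 19, Nfil3, and 172 of all genes. Without 5 libraries of low slope the straight line called 2 as rising and 1 as falling, beside 813 and 1714 of 12590 genes.

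Among the activators, Clock ran between time point means of 8.45 TPM at 38 h and 16.04 TPM at 36 h, and Npas2 between 35.5 TPM at 38 h and 64.3 TPM at 36 h. The 36 h values rest on 1 library. Among the repressors, Per2 was at 12.6 to 26.7 TPM, with its lowest mean at 38 h (15.5 TPM) and its highest at 36 h (24.6 TPM), so neighbouring time points held both extremes. Per1 was at 16.8 to 30.9 TPM with a fitted swing of 1.02-fold, and Cry1 at 43.5 to 68.2 TPM with a swing of 1.10-fold. Nr1d1 swung 1.04-fold and Nr1d2 1.09-fold. Among the outputs, the PAR bZIP factor Dbp was at 4.34 to 6.92 TPM with a swing of 1.08-fold, and its relative Tef at 14.1 to 24.6 TPM with a swing of 1.07-fold. Nfil3, the repressor that opposes them at D-box elements, had the lowest p of the list in the cosine test, with a log2 amplitude of 0.11 (SE 0.03) and an adjusted p of 0.27. Ciart, a repressor of CLOCK and BMAL1, had the lowest p of the list in the straight-line test, with a log2 change of 0.31 (SE 0.11) and an adjusted p of 0.096. In control, the same cosine called 4 of the 19 genes against a background of 0.0557% of genes. Nr1d1 (2.16-fold swing), Tef (2.20-fold) and Dbp (1.69-fold) were among them. Nr1d2 (2.02-fold) and Per2 (1.67-fold) were not called in control, with adjusted p-values of 0.10 and 0.20 in limma. Of the 19 clock genes 12 had their lowest time point mean at 38 h in the null, a time at which 38.6% of all genes tested also had theirs.

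**Figure D1:**
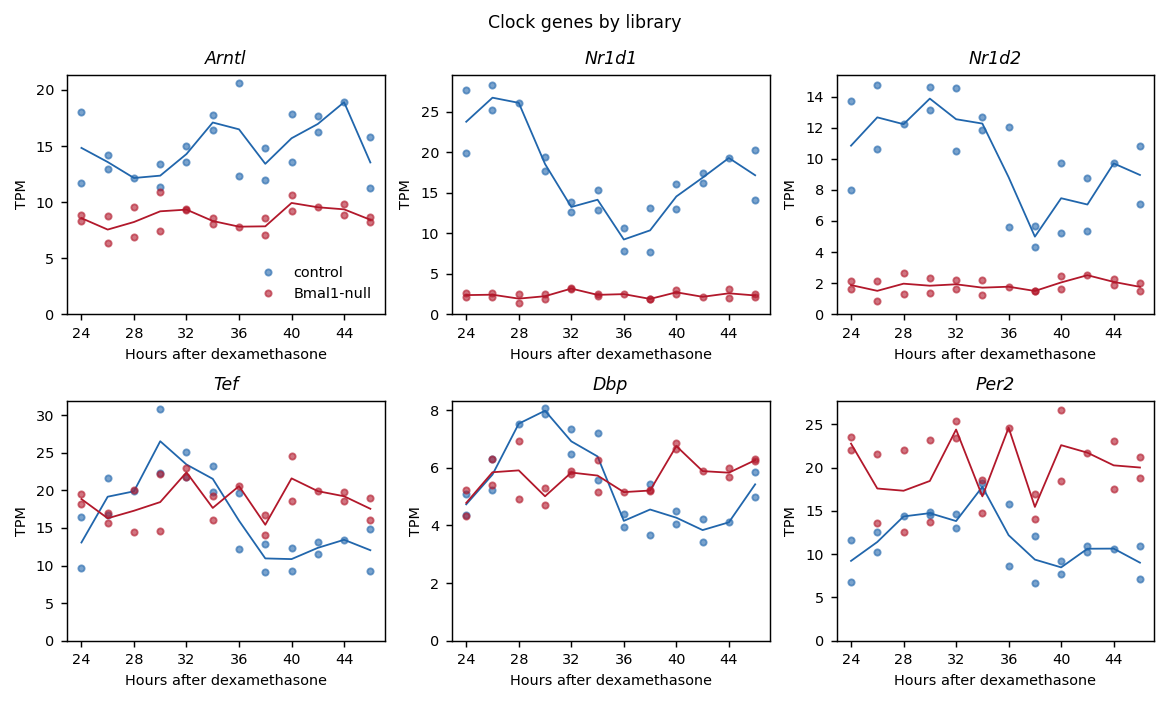
TPM of 6 clock genes (y axes, linear from 0) against hours after dexamethasone (x axes). Points are libraries, lines join time point means, red is Bmal1-null and blue is control. Nr1d1 in the null stayed between 1.40 and 3.25 TPM in every library, below every control library, and Dbp and Tef overlapped control without its peak near 30 h.

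The promoters of 4 of the 14 clock genes that have one in RefSeq hold the canonical E-box, CACGTG, within the 250 bases before the start. That motif, a palindrome and so the same on both strands, was found in 8.34% of the promoters of the genes tested and 6.02% of all RefSeq promoters. The clock count is of genes with a match in any promoter and these shares are of promoters, so the units differ. The promoters of Ciart (3 matches), Cry1 and Per1 (1 each) are shown as examples with this motif. None of these genes had a called time change in the null. The 24 h cosine in limma did not call them in control either (adjusted p 0.36, 0.10 and 0.42). Tef, the other of the 4, was called in control (adjusted p 0.015), and its promoters are not shown. Coordinates are of RefSeq build GRCm38.p6, sequences run 5′ to 3′ on the strand of the gene, and capitals mark the E-boxes. Ciart lies at chr3:95882229-95882478 (minus strand), Cry1 at chr10:85185055-85185304 (minus strand) and Per1 at chr11:69098699-69098948 (plus strand).
Ciart: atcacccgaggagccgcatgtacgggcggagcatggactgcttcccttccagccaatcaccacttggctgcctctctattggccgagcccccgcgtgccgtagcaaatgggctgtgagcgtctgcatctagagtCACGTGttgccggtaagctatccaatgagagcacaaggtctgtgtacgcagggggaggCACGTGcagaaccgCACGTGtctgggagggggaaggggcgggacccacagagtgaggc
Cry1: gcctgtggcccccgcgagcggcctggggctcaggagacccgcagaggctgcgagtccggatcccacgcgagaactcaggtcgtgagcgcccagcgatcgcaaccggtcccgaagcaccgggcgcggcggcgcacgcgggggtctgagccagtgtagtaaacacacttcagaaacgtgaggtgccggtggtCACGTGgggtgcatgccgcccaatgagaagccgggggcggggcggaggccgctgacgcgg
Per1: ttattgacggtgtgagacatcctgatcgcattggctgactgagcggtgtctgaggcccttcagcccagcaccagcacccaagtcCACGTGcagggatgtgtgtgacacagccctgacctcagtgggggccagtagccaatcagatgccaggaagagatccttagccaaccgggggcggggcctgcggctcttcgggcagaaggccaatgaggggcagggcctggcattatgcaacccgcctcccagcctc
A match is a description of these letters, not evidence of binding in these cells.

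A drift with time was present in Bmal1-null organoids. On a straight line, 9 of 10 tested genes of a fetal-like and regenerative list fell and 12 of 27 enterocyte genes rose. So did 8 of 9 mitochondrially encoded genes, by an uneven path described below. The lists were chosen with earlier results of these data known, so their counts are a description and not an independent test. The library numbers in the labels also rise with time in both genotypes, so hours and library order cannot be told apart. The straight line called 842 of 12550 genes (6.71%), of which 430 rose (3.43% of genes tested) and 412 fell (3.28%). A fitted change of 1.5-fold or more over the 22 h was reached by 182 called genes (1.45%), 105 up and 77 down, and 2-fold by 29, 11 up and 18 down. The median change was 0.45 on the log2 scale among rising genes and -0.34 among falling genes, against 0.02 over all genes tested. Of the 842 genes 577 had no overlap between the 6 libraries of 24 to 28 h and the 5 libraries of 42 to 46 h, where 8.37% of all genes tested had none. All 842 genes had the same sign when the line was fitted in the lower- and the higher-numbered libraries apart. The 842 were chosen on the slope over these same libraries, so this count and the 577 follow in part from that choice. Fitted within the lower- and the higher-numbered libraries, the line called 35 and 80 genes. The changes of all 12550 genes in the 2 sets had a Pearson correlation of 0.57 across genes, which are not independent and share the scaling of their libraries. Called genes had shorter transcribed lengths than the rest, with median summed exon lengths of 2876 bases among rising and 2641 bases among falling genes against 4110 bases over all genes tested. The count fell to 546 without 44 h replicate 2 and to 487 without 46 h replicate 2.

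Genes that mark fetal-like, regenerating intestinal epithelium fell. Of 17 genes on that list 10 passed the filter, and 9 of the 10 fell and 0 rose, beside 3.28% of all genes falling, and their median change was -0.90 on the log2 scale against 0.02 over all genes. Ly6a, the Sca-1 surface protein that marks regenerating epithelium, was at 156 to 220 TPM (median 187, n = 6) from 24 to 28 h and at 78.7 to 106 TPM (median 92.7, n = 5) from 42 to 46 h. Every early library was above every late one. The fitted change was -1.29 on the log2 scale (SE 0.12), a 2.44-fold fall, with an adjusted p of 2.7e-07 in limma. Msln, mesothelin, a surface glycoprotein, fell from 51.4 to 78.9 TPM (median 67.1) in the early libraries to 31.1 to 39.05 TPM (median 36.9) in the late ones, without overlap. Its change was -1.07 (SE 0.09), the same within the spread in the lower-numbered (-1.13) and the higher-numbered libraries (-1.0). Clu, clusterin, a secreted chaperone that marks revival stem cells, was at 13.1 to 15.8 TPM early and 6.10 to 8.96 TPM late, a change of -1.04 (SE 0.10). Krt7, a simple-epithelium keratin rare in the adult small intestine, was at 445 to 604 TPM early and 321 to 355 TPM late, a change of -0.76 (SE 0.10). In bulk RNA, fewer cells of a kind and less RNA per cell cannot be told apart.

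Some genes of annexins, calcium-dependent membrane-binding proteins, were among the falling genes. Anxa1 was at 64.9 to 107 TPM early and 47.5 to 58.5 TPM late, a change of -0.81 (SE 0.13), and Anxa3, which is not on the list, at 77.5 to 118 TPM early and 52.99 to 73.9 TPM late, a change of -0.76 (SE 0.12). Neither overlapped between early and late libraries. Anxa10 (-0.77, SE 0.13), Anxa8 (-1.11, SE 0.16), Ly6c1 (-1.0, SE 0.18) and Plaur, the urokinase receptor (-0.64, SE 0.14), also fell. Tm4sf4 was the tested member not called, with a change of -0.23 (SE 0.10, adjusted p 0.18). On the list 9 genes fell with the gene length slope of each library as a covariate, 9 with the uniquely mapped percent, and 4 in each library set alone. Among all genes tested, 1969 and 271 fell with these covariates, and 22 and 31 within the lower- and the higher-numbered libraries. Of 14 tested targets of YAP, the transcriptional coactivator of the Hippo pathway, 3 fell and 0 rose, beside 3.28% and 3.43% of all genes. They were Msln, which both lists hold, Ajuba (-0.59, SE 0.10) and the tissue factor gene F3 (-0.57, SE 0.15). The median of the YAP list was -0.09, close to 0.

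**Figure D2:**
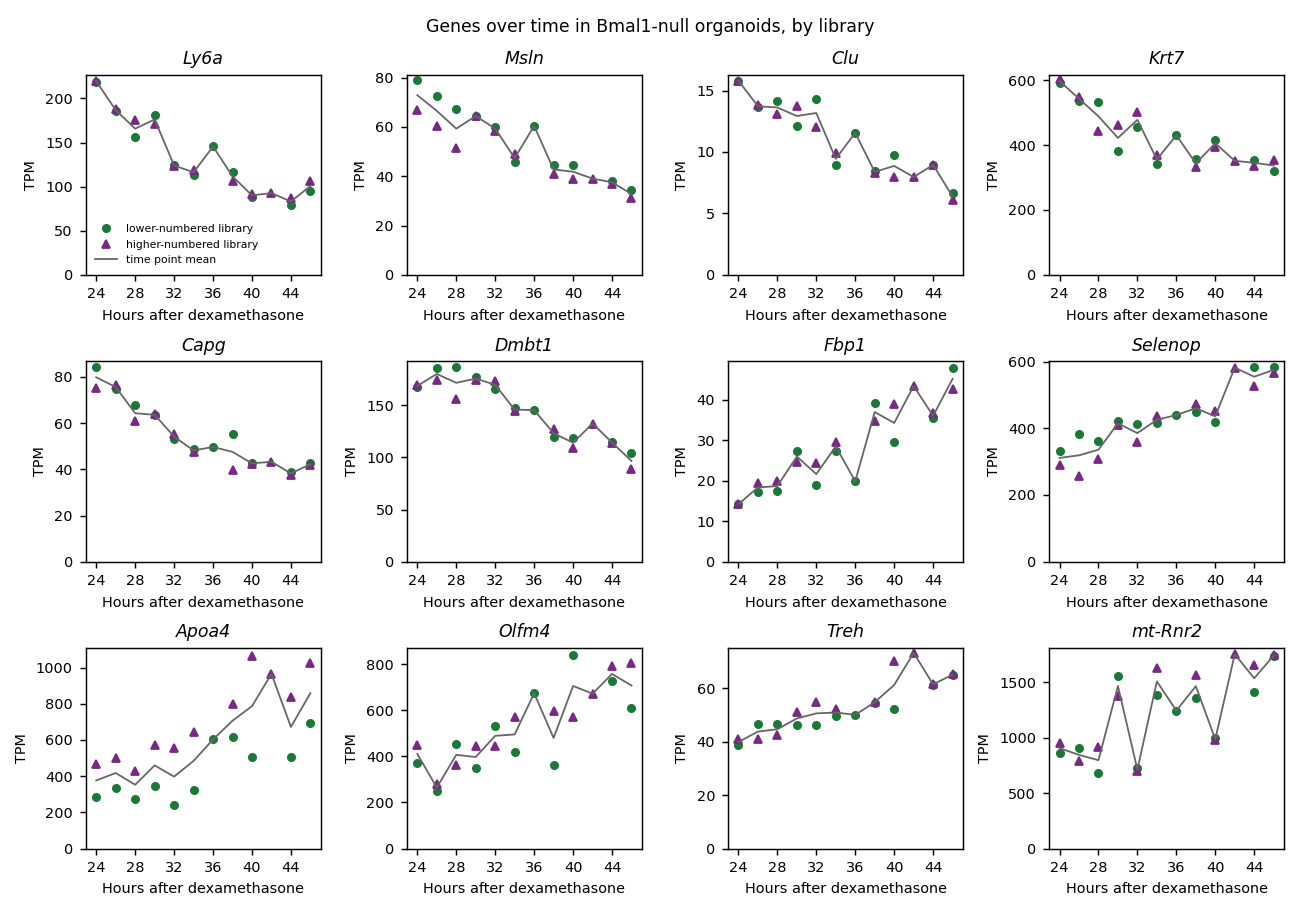
TPM (y axes, linear from 0) against hours after dexamethasone (x axes) for 12 genes in Bmal1-null organoids. Green circles are lower-numbered and purple triangles higher-numbered libraries, and grey lines join time point means. Ly6a ran from a mean of 220 TPM at 24 h to 83.1 TPM at 44 h and Fbp1 from 14.2 to 45.2 TPM, in both sets, while mt-Rnr2 moved up and down between neighbouring time points.

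The falling genes of lowest p also held genes outside that list. Capg, an actin-capping protein, was at 60.8 to 84.4 TPM early and 37.5 to 43.3 TPM late, a change of -1.0 (SE 0.09). S100a6, a calcium-binding protein, was at 1740 to 2338 TPM early and 1059 to 1177 TPM late, a change of -0.96 (SE 0.11). Dmbt1, a secreted mucosal defence glycoprotein, was at 156 to 187 TPM early and 89.3 to 133 TPM late, a change of -0.86 (SE 0.08). None of these 3 genes overlapped between early and late libraries. They were chosen by low p over the same libraries, so this follows in part from that choice. Syt8, a synaptotagmin, fell from 11.3 to 17.6 TPM to 4.95 to 6.81 TPM (-1.47, SE 0.13). Fgf15, the ileal hormone that represses bile acid synthesis, fell from 6.35 to 10.5 TPM to 3.59 to 4.50 TPM (-1.14, SE 0.11). Batf2, an AP-1 family factor (-1.25, SE 0.14), and Arhgap40, a GTPase-activating protein (-1.06, SE 0.12), completed the 10 falling genes of lowest p. The largest fold among named falling genes was that of Ly6g, from 8.06 to 12.2 TPM early to 2.84 to 2.97 TPM late (-1.96, SE 0.22).

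Of 17 tested genes of epithelial identity 4 fell and 0 rose, beside 3.28% and 3.43% of all genes, with a median of -0.14. Krt19 fell from 6093 to 7431 TPM early to 4061 to 4644 TPM late (-0.65, SE 0.07), and Krt8 from 4129 to 4915 TPM to 3022 to 3396 TPM (-0.57, SE 0.06). Krt18, the partner of Krt8 in keratin filaments (-0.32, SE 0.06), and Cdx1, a transcription factor of intestinal identity (-0.27, SE 0.06), fell less. Of 8 tested colon genes 3 fell and 0 rose. These were Ly6g, the carbonic anhydrase Car1 (-1.24, SE 0.17) and Car4 (-0.51, SE 0.15). The median of that list was 0.01.

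Of 5 motifs counted in the promoters of genes that changed with time, the AP-1 element, bound by Jun, Fos and Batf proteins, is described first. The letters TGANTCA, read on both strands, were found in 11 of 65 promoters (16.9%) of the 47 genes with a RefSeq promoter that fell 1.5-fold or more, in 8.42% of the promoters of all falling genes, in 6.12% of those of rising genes, in 4.56% of those of genes tested and in 6.75% of all RefSeq promoters. Median GC content was 54.8% in the first of these groups and 59.6% over the genes tested, and its part in the counts was not tested. The other motifs were also read on both strands, in the genes that fell 1.5-fold or more and in the genes tested. The TEAD letters GGAATG were in 15.4% against 10.7% of promoters, and in 15.7% of those of genes that rose 1.5-fold or more. The E-box CACGTG was in 6.15% against 8.34%, the CDX letters TTTATNG in 7.69% against 6.21%, and the HNF4 letters CAAAGTCCA in 0% against 0.409%. In promoters of genes that rose 1.5-fold or more, the E-box was in 8.99%, the CDX letters in 10.1% and the HNF4 letters in 2.25% (2 of 89). The promoters of Arhgap40, S100a11 and F3, each with 2 matches, are shown because these genes fell. Arhgap40 is in the group that fell 1.5-fold or more. S100a11 and F3 fell by less and are not among its 65 promoters. Matches are in capitals, and sequences are from GRCm38.p6, 5′ to 3′ on the strand of the gene. Arhgap40 lies at chr2:158512546-158512795, S100a11 at chr3:93520246-93520495 and F3 at chr3:121723287-121723536, all on the plus strand.
Arhgap40: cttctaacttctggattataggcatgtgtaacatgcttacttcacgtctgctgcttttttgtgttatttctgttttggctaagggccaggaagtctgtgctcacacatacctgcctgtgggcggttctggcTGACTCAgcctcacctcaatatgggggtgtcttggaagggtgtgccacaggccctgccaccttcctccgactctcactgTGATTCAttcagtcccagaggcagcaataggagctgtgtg
S100a11: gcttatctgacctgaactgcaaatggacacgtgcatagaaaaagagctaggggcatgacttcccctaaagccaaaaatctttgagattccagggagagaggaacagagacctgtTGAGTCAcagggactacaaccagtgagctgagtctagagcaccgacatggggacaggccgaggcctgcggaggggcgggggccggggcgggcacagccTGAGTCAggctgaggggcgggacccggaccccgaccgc
F3: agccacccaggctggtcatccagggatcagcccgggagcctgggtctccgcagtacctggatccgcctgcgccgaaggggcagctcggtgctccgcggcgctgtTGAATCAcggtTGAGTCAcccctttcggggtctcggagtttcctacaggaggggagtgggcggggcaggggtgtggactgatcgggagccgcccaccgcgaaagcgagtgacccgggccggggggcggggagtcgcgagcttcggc
S100a11, a calcium-binding protein of the same family as S100a6, was at 260 to 372 TPM early and 227 to 278 TPM late, which overlapped, and changed by -0.47 (SE 0.10, adjusted p 0.0046 in limma).

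Several genes of metabolic enzymes and secreted proteins were among the rising genes of lowest p. Fbp1, fructose-1,6-bisphosphatase of gluconeogenesis, was at 14.2 to 19.98 TPM (median 17.3, n = 6) from 24 to 28 h and at 35.4 to 47.9 TPM (median 42.6, n = 5) from 42 to 46 h. All late libraries were above all early ones. The change was 1.44 (SE 0.14), a 2.71-fold rise and the largest fold among the 430 rising genes, with an adjusted p of 7.8e-07 in limma. Selenop, the secreted selenium carrier, was at 256 to 382 TPM early and 526 to 584 TPM late, a change of 0.90 (SE 0.09). Dao, D-amino acid oxidase, was at 13.7 to 15.2 TPM early and 20.7 to 26.8 TPM late (0.87, SE 0.09), and Pnliprp2, a pancreatic lipase relative, at 81.8 to 91.3 TPM early and 120 to 157 TPM late (0.72, SE 0.08). The sulfotransferase Sult1c2 (0.85, SE 0.09), the secreted ribonuclease Rnase1 (0.72, SE 0.08), the aldo-keto reductase Akr1b7 (0.97, SE 0.11), the helix-loop-helix inhibitor Id2 (0.64, SE 0.08) and Fam213a (0.76, SE 0.09) had no overlap between early and late libraries either. Of all genes tested 8.37% had none. The genes of lowest p were chosen over the same libraries, so their lack of overlap follows in part from that choice. Among the 11 genes that rose 2-fold or more, chosen by size after their values were seen, were the alcohol dehydrogenases Adh1 (1.27, SE 0.16) and Adh6a (1.08, SE 0.22) and Ass1 of arginine synthesis (1.03, SE 0.18).

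Of 27 tested enterocyte genes 12 rose and 1 fell, beside 3.43% and 3.28% of all genes, with a median change of 0.48 against 0.02. Treh, the brush border enzyme that cleaves trehalose, was at 38.9 to 46.8 TPM early and 61.3 to 73.3 TPM late (0.69, SE 0.08). Sis, sucrase-isomaltase, was at 396 to 721 TPM early and 938 to 1191 TPM late (0.85, SE 0.15). Neither gene overlapped between early and late libraries. The apolipoprotein Apoa4 was at 274 to 498 TPM early and 504 to 1026 TPM late (1.34, SE 0.28), without overlap. Apoc3 (0.86), Apob (0.71), the glucose carrier Slc2a2 (0.71), adenosine deaminase Ada (0.57), the bile acid carrier Slc10a2 (0.50), Slc5a1 (0.49) and Cyp3a11 (0.47) rose too. Fabp6, the ileal bile acid binding protein, fell (-0.73, SE 0.18). Alpi, Vil1, Krt20 and Apoa1 were among the 14 not called, with changes from -0.31 to 0.08. The count of rising enterocyte genes was 6 with the uniquely mapped percent as a covariate, 3 without the libraries of 24 and 46 h, and 1 and 6 within the lower- and the higher-numbered libraries. The list's median change in these fits was 0.38, 0.56, 0.33 and 0.64. With the gene length slope as a covariate 19 rose, under median-of-ratios scaling 15, and without the 5 libraries of low slope 14. Among all genes tested, 1938 of 12550, 582 of 12543 and 813 of 12590 rose in these fits, in the same order.

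Genes of lipid and xenobiotic handling rose in part. Of 22 tested PPAR targets and fatty acid oxidation genes 4 rose and 0 fell, beside 3.43% and 3.28% of all genes, with a median of 0.09. Acaa1b, a peroxisomal thiolase, was at 1.37 to 2.79 TPM early and 3.42 to 5.29 TPM late (0.89, SE 0.17), without overlap. The transcription factor gene Creb3l3 (0.63, SE 0.15) and the thioesterase gene Acot1 (0.62, SE 0.14) rose too. Of 28 tested xenobiotic and NRF2 genes 6 rose and 2 fell, with a median of 0.15. The cytochromes Cyp3a13 (0.62, SE 0.10), Cyp3a25 (0.65, SE 0.12) and Cyp2d26 (0.57, SE 0.11) rose, and the glutathione transferases Gsta1 (-0.46) and Gsta4 (-0.43) fell.

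Stem, Paneth and secretory genes were called in part. Of 18 tested stem cell genes 2 rose and 0 fell, beside 3.43% and 3.28% of all genes, with a median of 0.18. The rising count was 4 under median-of-ratios scaling and in the quantile-normalized table, and 10 with the gene length slope as a covariate. Among all genes tested, 582 of 12543, 646 of 12420 and 1938 of 12550 rose in these fits, in the same order. Olfm4, a secreted glycoprotein of crypt stem cells, was at 252 to 452 TPM early and 608 to 806 TPM late (1.21, SE 0.19, adjusted p 0.00027 in limma), without overlap, and Smoc2 rose by 0.37 (SE 0.08). Lgr5, the Wnt-amplifying receptor of these cells, was at 15.4 to 30.1 TPM early and 28.0 to 42.5 TPM late with a change of 0.73 (SE 0.25) and an adjusted p of 0.081, which is not a call. Of 20 tested Paneth cell genes 4 rose and 0 fell, with a median of 0.27. They were the antimicrobial genes Ang4 (0.36) and Lyz1 (0.24), the lectin Itln1 (0.25) and Nupr1 (0.44). That count was 0 under median-of-ratios scaling and 14 with the gene length slope as a covariate. Of 13 goblet genes Zg16 (-0.42) and Fcgbp (-0.30) fell and 0 rose. Of 20 enteroendocrine genes the hormone Cck fell from 127 to 154 TPM early to 81.5 to 95.6 TPM late (-0.70, SE 0.08), Chga fell (-0.33) and Reg4, a lectin also made by secretory cells, rose (0.46). Reg3a, an antimicrobial lectin, rose from 21.4 to 26.8 TPM to 33.01 to 42.9 TPM (0.78, SE 0.10).

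Mitochondrially encoded transcripts rose together. Of 9 tested genes 8 rose and 0 fell, beside 3.43% and 3.28% of all genes, with a median change of 0.77. The ribosomal RNA mt-Rnr2 was at 682 to 953 TPM early and 1415 to 1753 TPM late (0.97, SE 0.22), and mt-Nd1, a complex I subunit, at 2912 to 3812 TPM early and 5176 to 5828 TPM late (0.66, SE 0.14). mt-Nd6, the subunit on the other strand, was at 33.3 to 70.7 TPM early and 90.3 to 120 TPM late (1.22, SE 0.21). Early and late libraries did not overlap in these genes. The path between was uneven, since the time point mean of mt-Rnr2 was 1466 TPM at 30 h, 713 TPM at 32 h, 1507 TPM at 34 h and 986 TPM at 40 h. The nuclear RNA Malat1 moved on the same hours, with 89.98 TPM at 30 h, 45.7 TPM at 32 h, 87.7 TPM at 34 h, 105 TPM at 38 h and 52.8 TPM at 40 h. Of 31 nuclear-encoded respiratory chain genes 0 rose and 1 fell (Sdhc, -0.14), with a median of -0.05. With the gene length slope as a covariate 3 of the 31 rose and 12 fell, with a median of -0.04. Over all 12550 genes 1938 rose and 1969 fell with that covariate. No mitochondrially encoded gene was called within either library set alone or without the libraries of 24 and 46 h. The medians of the 9 genes in these fits were 0.61 in the lower-numbered and 0.95 in the higher-numbered libraries and 0.91 without the end time points. With the uniquely mapped percent as a covariate 3 were called, with a median of 0.54.

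Library measures moved with time as well. Reads left unmapped as too short made up 5.47 to 13.2% of reads from 24 to 28 h and 2.90 to 5.43% from 42 to 46 h, without overlap in the Bmal1-null libraries. The mitochondrially encoded share of TPM was 1.17 to 1.81% early and 2.29 to 2.70% late. The slope of log2(TPM + 1) on log2 gene length, a measure of how far long transcripts are recovered, was -0.04 to 0.12 early and 0.03 to 0.12 late, and 5 libraries had a slope under 0 (replicate 1 at 30, 34 and 38 h and replicate 2 at 26 and 28 h). The part of the too-short share and of the mitochondrial share in the time changes was not tested. The length slope and the uniquely mapped percent were each added to the fit, and the 5 libraries of low slope were left out. With the length slope added the straight line called 3907 genes, of which 1938 rose and 1969 fell. With the uniquely mapped percent it called 462, of which 191 rose and 271 fell. Without the 5 libraries it called 2527, of which 813 rose and 1714 fell. The median change of all genes was 0.01, -0.09 and -0.07 under these 3 fits.

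**Figure D3:**
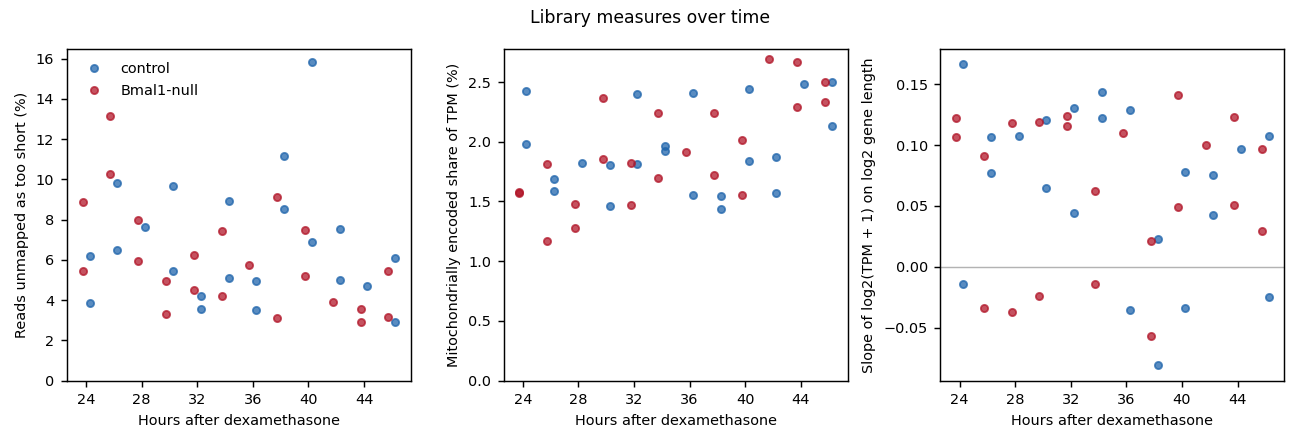
Library measures (y axes) against hours after dexamethasone (x axes), each point a library, red Bmal1-null and blue control, drawn side by side for clarity. The share of reads unmapped as too short was highest in the null at 26 h (13.2%), the mitochondrial share of TPM rose to 2.70% at 42 h, and the length slope fell under 0 in 5 null libraries.

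Few members of the lists that follow treatment or growth were called. Over all genes 3.43% rose and 3.28% fell, and lists with 1 called gene were near such a share. Of 16 tested glucocorticoid response genes 0 were called, with a median of 0.11 and changes from -0.24 to 0.25. Their known members Dusp1 (0.25, SE 0.14) and Klf9 (0.24, SE 0.11) did not pass the test. Of 18 immediate early genes 0 were called, with changes from -0.30 to 0.34. Under median-of-ratios scaling 1 glucocorticoid response gene fell and 1 immediate early gene rose. Of 26 DNA replication genes 1 fell (Gins2, -0.34) and of 26 mitosis genes 1 fell (Cdc20, -0.27), with changes from -0.34 to 0.40 and from -0.27 to 0.36. Of 18 p53 targets 0 were called, of 18 Notch and secretory fate genes 0, and of 10 tuft cell genes 0. Of 32 cytosolic ribosomal protein genes 1 rose (Rpl4, 0.16), with a median of 0.07. With the gene length slope as a covariate 15 of the 32 rose and 2 fell, and without the 5 libraries of low slope 15 rose and 0 fell, with medians of 0.08 and 0.16. Over all genes 1938 of 12550 rose and 1969 fell with that covariate. Without those libraries 813 of 12590 genes rose and 1714 fell. Of 28 ribosome biogenesis genes 1 rose and 3 fell. Of 24 genes of the unfolded protein response the chaperones Dnajb9 (0.66) and Hsp90b1 (0.32) rose, and of 13 heat shock genes Hspa1a (-0.42) and Hspa1b (-0.51) fell. Of 31 splicing and RNA binding genes 4 rose, beside 3.43% of all genes, with a median of 0.15, and the splicing kinase Clk1 (0.64, SE 0.12) was among them. That count was 8 under median-of-ratios scaling, 10 in the quantile-normalized table and 13 with the length slope as a covariate, and 0 within either library set. Among all genes tested, 582 of 12543 rose under that scaling, 646 of 12420 in that table and 1938 of 12550 with that covariate. Of 25 cholesterol synthesis genes Mvk (-0.34) and Ebp (-0.17) fell. Of 26 glycolysis and hypoxia genes 1 rose, the mitophagy receptor Bnip3 (0.70, SE 0.18).

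**Figure D4:**
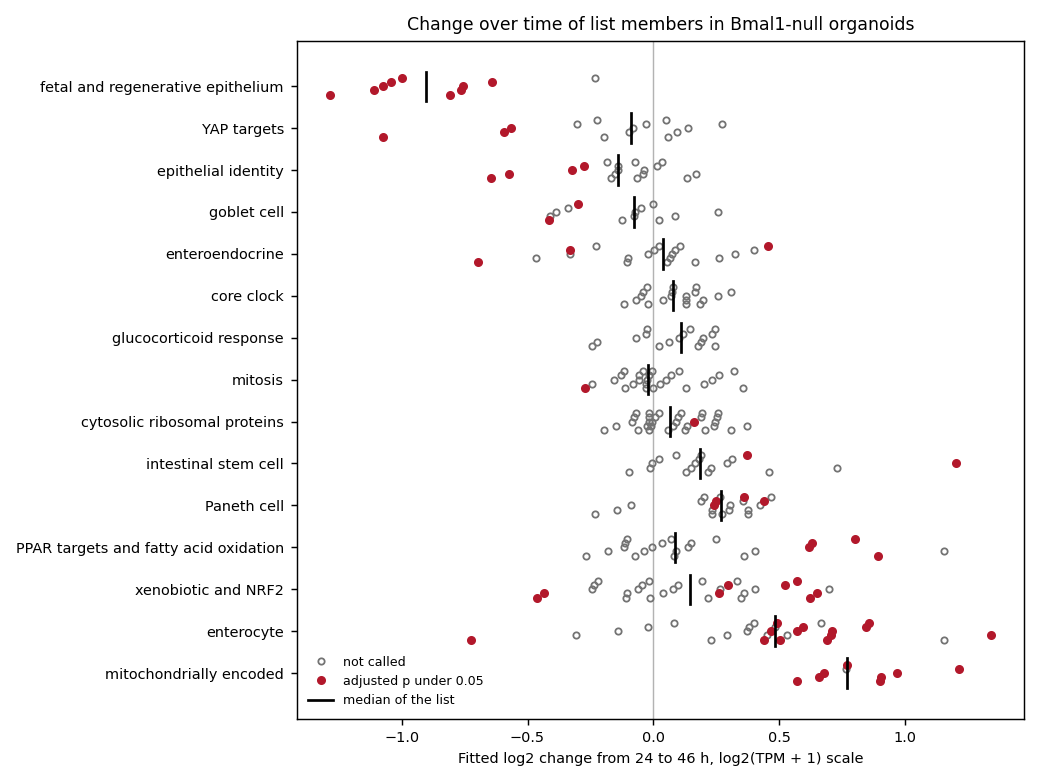
Fitted log2 change from 24 to 46 h (x axis) of each tested member of 15 gene lists in Bmal1-null organoids. Filled red points passed an adjusted p under 0.05, open grey points did not, and black bars are list medians. All 10 members of the fetal and regenerative list lie left of 0 and all 9 mitochondrially encoded genes right of it, and the 19 clock genes lie between -0.12 and 0.31 with none filled.

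Time as a factor, which asks for any difference between time points beyond the spread of libraries of one time point, called 25 genes (0.199%), and 1011 genes had an unadjusted p under 0.05. Among the 25, 22 were also called by the straight line, and 14 of the 22 had their highest mean at 24 or 26 h and 7 at 42 h or later. Ly6a led, with a 2.63-fold range between time points and an adjusted p of 5.0e-05 in limma. It was followed by Anxa1 (2.19-fold), Fbp1 (3.03-fold), mt-Rnr2 (2.46-fold), mt-Rnr1 (2.30-fold), Dmbt1 (1.86-fold) and Anxa3 (2.07-fold). The 3 genes called by the factor and not by the line were Malat1 (2.26-fold, highest at 38 h and lowest at 32 h), Lars2 (5.05-fold, highest at 34 h and lowest at 28 h) and the predicted gene Gm47303 (8.17-fold, 0 to 10.4 TPM), the last 2 outside the naming rule. Lars2, a mitochondrial leucyl-tRNA synthetase, ranged from 69.95 to 487 TPM with a median of 127 TPM. Leaving out single libraries gave 7 to 48 calls, 7 without 44 h replicate 2 and 48 without 28 h replicate 2. A test of the 10 terms of time that a straight line leaves, added after seeing the data, called 0 genes in limma, with 370 at an unadjusted p under 0.05.

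No 24 h rhythm passed the test in Bmal1-null organoids. The cosine called 0 of 12550 genes (0%) in limma, while 864 genes had an unadjusted p under 0.05. Among the 842 genes with a called line 523 were among genes with an unadjusted cosine p under 0.05, and a single cycle was sampled. The 10 genes of lowest p with a 1.5-fold swing had adjusted p-values of 0.066 to 0.074, and 10 of 10 were called by the straight line. They were the falling genes Dmbt1, Ly6a, Car1, Sptssb, Capg and Batf2, with fitted peaks from 27.6 to 29.6 h, and the rising genes Dao, Rab30, Clps and Akr1b7, with fitted peaks from 39.5 to 41.1 h. With a straight line added to the model the cosine called 0 genes. It called 10 genes without 46 h replicate 1, 5 without 46 h replicate 2 and 1 without 42 h replicate 2. A cosine of 12 h period, of which the series holds nearly 2 cycles, called 0 of 12550 genes (0%) in limma, with 810 at an unadjusted p under 0.05. Its 5 genes of lowest p were AY036118 (3.95-fold), Psca (1.51-fold), Snhg14 (1.52-fold), mt-Nd2 (1.55-fold) and Scarna2 (1.51-fold), all at an adjusted p of 0.74.

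The drift was compared with that of control organoids. The test of the difference in slope between Bmal1-null and control called 0 of 12654 genes (0%) in limma, with 321 at an unadjusted p under 0.05. With the lower-numbered Bmal1-null libraries alone against control, an alternative added after seeing the data, it called 0 genes, with 78 at an unadjusted p under 0.05. On simulated data of this comparison, 50% of 100 genes with a 1.5-fold and 84% of 100 genes with a 2-fold difference were recovered, so smaller differences would often have been missed. In control alone the straight line called 276 of 12570 genes (2.20% of genes tested there), and 196 of these were among the 842 called in the null, 196 of 196 with the same sign. This is 71.01% of the control calls and 23.3% of the null calls. Of the 842 genes 825 had the same sign of change in control, with a Pearson correlation of 0.92 across these genes, which were chosen on the null. Over all 12550 genes tested in the null the correlation was 0.62, across genes that are not independent and share the scaling of their libraries. Ly6a changed by -1.29 (SE 0.12) in the null and -1.31 (SE 0.14) in control, Msln by -1.07 (SE 0.09) and -1.04 (SE 0.11), and Treh by 0.69 (SE 0.08) and 0.77 (SE 0.09). The fetal and regenerative list had a median of -0.90 in the null and -0.82 in control, the enterocyte list 0.48 and 0.24, and the mitochondrially encoded list 0.77 and 0.16.

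**Figure D5:**
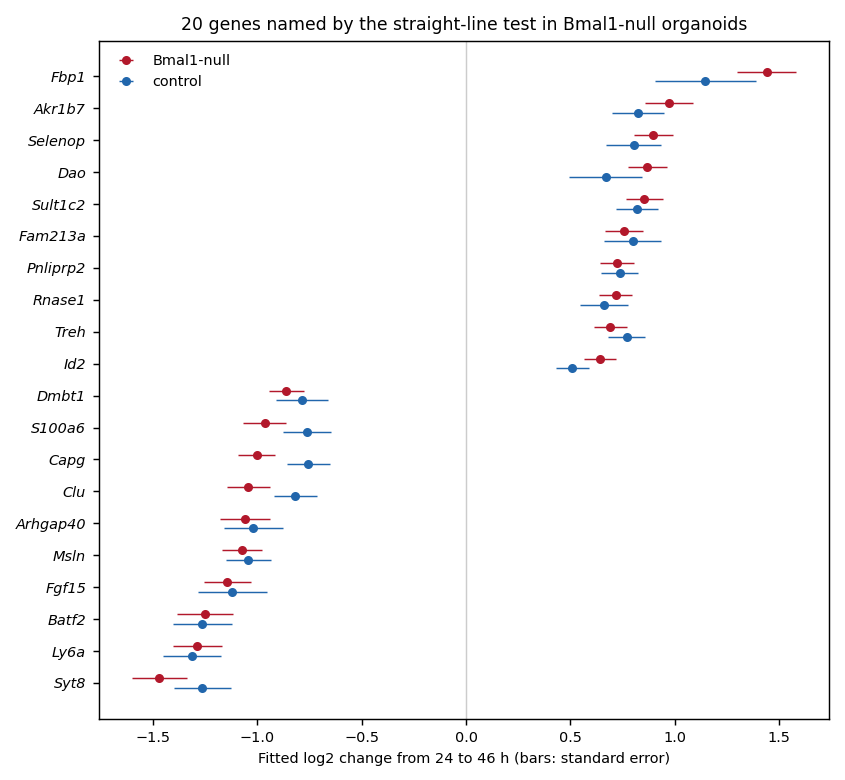
Fitted log2 change from 24 to 46 h (x axis) with standard errors for the 10 rising and 10 falling genes of lowest p in the null, red for Bmal1-null and blue for control. The genes were chosen on the null values. Each gene changed in the same direction in both genotypes, and Fbp1 had the largest rise in both (1.44 and 1.15).

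No difference in slope was called for a clock gene. The values of those among the named genes of lowest p are given as a description, and Nr1d1 and Nr1d2 passed the 5 TPM minimum for naming only through control. Nr1d2 changed by 0.13 in the null and -0.79 in control, a difference of 0.92 (SE 0.33, unadjusted p 0.0084, adjusted p 0.81 in limma). Tef differed by 0.83 (SE 0.32), Nr1d1 by 0.71 (SE 0.32), Dbp by 0.66 (SE 0.22) and Ciart by 0.605 (SE 0.19). The fitted changes of these clock genes were 0.04 to 0.31 in the null, none of them called, and -0.79 to -0.29 in control. The median change of the 19 clock genes was 0.08 in the null and -0.28 in control, where the median of all tested genes was 0.02 and -0.09. The other named genes were the fructose carrier Slc2a5 (0.67 in the null and -0.20 in control), the glucose carrier Slc2a2 (0.71 and 0.11), mt-Co1 (0.77 and 0.16), Snhg14 (0.77 and 0.16) and the cyclin Ccnc (0.36 and -0.23).

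The lower- and higher-numbered libraries also differed in the level of some genes. With the time point as a factor 63 of 12550 genes (0.502%) differed, 45 higher and 18 lower in the higher-numbered libraries. Beside Xist (6.00 on the log2 scale), Eif2s3y (-5.51), Ddx3y (-3.80), Kdm5d (-3.36) and Uty (-2.82), the higher-numbered libraries had more of the fatty acid binding protein Fabp1 (5.46 against 2.10 TPM), Apoa4 (715 against 430 TPM), Cyp2c29 (90.4 against 52.3 TPM), Cyp2b10 (78.3 against 48.9 TPM) and the Paneth cell defensin Defa29 (76.7 against 48.2 TPM). They had less of the colonic hormone Insl5 (13.6 against 19.5 TPM) and of the position genes Hoxb6 (38.8 against 53.02 TPM), Hoxb9 (32.8 against 41.7 TPM) and Hoxb4 (5.52 against 7.51 TPM). Of these 63 genes 8 also changed with time. The slopes over time differed between the sets in 0 of 12550 genes (0%) in limma, with 134 at an unadjusted p under 0.05. Apoa4 is an example, with changes of 1.31 in the lower- and 1.29 in the higher-numbered libraries. On simulated data of this test 26% of 100 genes with a 1.5-fold and 56% of 100 genes with a 2-fold slope difference were recovered.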

How the data were processed

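RNA of intestinal organoids was sequenced and mapped to GRCm38, with STAR 2.5 and RSEM 1.3.0 named per the submitters' processing notes. The authors deposited TPM per gene and library, and a filtered, quantile-normalized version whose columns name the time point but not the library. The deposited alignment summary gives read counts and the percent of reads in each mapping class, per the file headers. The authors' table marks 2 Bmal1-null libraries as not used, with no reason, and these were left out. No column was left unmapped (0).

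TPM were tested as log2(TPM + 1) for genes averaging at least 1 TPM, with limma 3.58.1 in R 4.3.3, a variance trend and Benjamini-Hochberg adjustment over all genes. On this scale fold changes of low genes are understated. The depth of TPM is known only as uniquely mapped reads per library. Models were a straight line, a cosine of 24 h or 12 h period and the time point as a factor in the 22 Bmal1-null libraries, and the difference in line from the 22 control libraries. Early libraries are those of 24 to 28 h and late ones those of 42 to 46 h. Genes named for low p were chosen on these same libraries, so a lack of overlap follows in part from that choice. The straight line, the cosines, the factor, the difference from control and the library set tests were tried on simulated data. The noise of each gene was drawn apart, without effects shared by a library, and only genes averaging 5 TPM or more were changed. The departure from a straight line and the tests in control alone were not simulated. Members and gene lists were chosen with earlier results of these data known.

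Named genes are the clock list, the 10 rising and 10 falling genes of lowest p with a 1.5-fold change, the 15 of lowest p for the factor, 10 for the 24 h cosine, 5 for the 12 h cosine, 10 for the difference from control and 10 in each direction between library sets (5 TPM or more, no predicted genes), and up to 4 members of lowest p per list. Other list members and genes past 2-fold are named after their values were seen. A few items are not reported here. Alternatives were the pseudocount, the filter, the scaling, the authors' quantile-normalized TPM, covariates for the gene length slope and the uniquely mapped percent, the variance trend, the library set as a replicate block and leaving out each library. The library numbers were checked as a pairing by correlating the differences between sets across 10 time points over autosomal genes. The 45 correlations ran from -0.69 to 0.63 with a median of 0.04, and 17 were over 0.1.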

Additional observations from a re-analysis of the deposited data

How the results depend on the processing

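The straight-line count of 842 genes became 3907 with the gene length slope as a covariate, 462 with the uniquely mapped percent, 35 within the lower- and 80 within the higher-numbered libraries, and, in alternatives added after seeing the data, 2527 without the 5 libraries of length slope under 0 and 198 without those of 24 and 46 h. Leaving out single libraries gave 487 to 1049, and 546 without 44 h replicate 2. With the replicate block, the library set as a term, it was 861, the factor count 30, and the 24 h and 12 h cosines and the difference from control stayed at 0. The factor count of 25 became 281 without a filter, 533 with the length slope, 15 with the uniquely mapped percent, 42 in the authors' quantile-normalized table, 45 with the replicate block at time points with 2 libraries and 16 without the 5 libraries, and 7 to 48 without single libraries. The 24 h cosine called 172 genes with the length slope and 7 in the quantile-normalized table, and 0 to 10 without single libraries. The 63 genes differing between library sets became 382 with the length slope, 15 without the 5 libraries and 31 to 63 without single libraries. The cause of these shifts was not tested. The 12 h cosine, the slope difference between sets and the difference from control called 0 genes in every alternative run. Of 945 refits of 27 named straight-line genes 926 kept direction and call, 19 (in 10 genes) lost the call and 0 reversed. The 27 were chosen by low p in the line or factor test and were called by the line in these same libraries. Many refits left out a single library. The kept calls follow in part from this and do not describe the called genes as a whole. Of 662 cosine refits of clock genes 1 was a call, Nfil3 with the length slope. The quantile-normalized table was not run for the library sets, whose columns are not tied to libraries, nor for the difference from control, whose tables were normalized separately.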
